A study of Mus musculus with 4 samples.

Results

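The 8 genes described here encode granule proteases, receptor chains and an amine-forming enzyme that mark mast cells and basophils: Cma1, Mcpt8, Prss34, Cpa3, Gzmb, Fcer1a, Ms4a2 and Hdc. They were matched by symbol, each to 1 row, among the 32285 genes of the deposited matrices. The set was chosen by known function with results of these same libraries in view, and selected on values that include the Cma1 level of each library. The differences between libraries below are therefore descriptions with no test.

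Mouse bone marrow cells sorted as CD45.2+ and Kit+ were taken 10 weeks after transplantation and profiled as single cells together with barcoded antibodies. There were 4 libraries. Their labels name control marrow, marrow deleted for Mll3, marrow deleted for Mll4, and marrow deleted for both (Mll3/4). Mll3 (Kmt2c) and Mll4 (Kmt2d) are related histone methyltransferases. How the genes were deleted, the sex of the animals and whether animals were pooled are not given in the sources used here. With 1 library per label, the 95% intervals below hold counting error alone, and what is compared is single libraries rather than genotypes.

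Mast cells and basophils carry IgE on the high-affinity Fc epsilon receptor, and its crosslinking makes them release granules loaded with histamine and proteases. Basophils complete their development in the bone marrow, whereas mast cell precursors leave it and mature in tissues, where the chymases and tryptases they store depend on the site. Immature cells of both lineages carry Kit, which mast cells keep, so a Kit sort passes mast cell precursors and only part of the basophil lineage.

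By role, the set holds 5 proteases, 2 receptor chains and 1 enzyme. Cma1 is a chymase of mast cell granules, Mcpt8 a serine protease used as a basophil marker, and Gzmb a granzyme best known from cytotoxic lymphocytes. These 3 genes lie in the chymase and granzyme cluster of chromosome 14, at chr14:55941451-55944675 (Cma1), chr14:56082166-56085273 (Mcpt8) and chr14:56258838-56262260 (Gzmb), on the minus strand of GRCm38. Prss34, a tryptase-like basophil protease, lies at chr17:25298394-25300165 on the plus strand. Cpa3, the carboxypeptidase of mast cell granules, lies at chr3:20215620-20242181 on the minus strand. Fcer1a, the IgE-binding alpha chain of the receptor, lies at chr1:173221284-173227214, and Ms4a2, its beta chain, at chr19:11615523-11623719, both on the minus strand. Hdc, histidine decarboxylase, makes histamine and lies at chr2:126593667-126619299 on the minus strand. Reads of Cma1 could be shared with related chymase genes, and no source used here states how such reads were counted.

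The 250 bases upstream of each gene's RefSeq start (GRCm38.p6) were searched on both strands for 4 sets of letters bound by factors of these lineages. A GATA motif (AGATAA or TGATAA, and also AGATAG or TGATAG) was found upstream of 6 of the 8 genes, and 26.5% of all 32851 upstream windows of this length held one. Cma1, Prss34, Cpa3, Fcer1a and Hdc had 1 match each and Ms4a2 had 3. Mcpt8 and Gzmb had none. Both of these held 2 copies of a RUNX motif (TGTGGT), which Cpa3 and Fcer1a held once and 14.05% of all windows held. The E-box set (CATGTG or CACGTG, 17.6% of windows) matched in Prss34 and Fcer1a, and the C/EBP set (TTGCNNAA, 9.56% of windows) in Fcer1a only. No match overlapped another in these 8 windows, and a match is a description of the sequence, not a bound site. Printed below, 5′ to 3′ on each gene's own strand, are Cma1 and Cpa3, the members that differed most between the control and Mll4-labelled libraries, Ms4a2, which held the most GATA matches, and Mcpt8, which held none. Capitals mark GATA matches on either strand. They are centred 76 bases upstream of the start in Cma1, 43 in Cpa3, and 221, 34 and 8 in Ms4a2.
Cma1 (chr14:55944676-55944925, minus): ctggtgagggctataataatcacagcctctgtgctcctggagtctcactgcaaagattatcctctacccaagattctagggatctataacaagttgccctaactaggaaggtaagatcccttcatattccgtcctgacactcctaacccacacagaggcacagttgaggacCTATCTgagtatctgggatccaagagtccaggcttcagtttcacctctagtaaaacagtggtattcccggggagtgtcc
Cpa3 (chr3:20242182-20242431, minus): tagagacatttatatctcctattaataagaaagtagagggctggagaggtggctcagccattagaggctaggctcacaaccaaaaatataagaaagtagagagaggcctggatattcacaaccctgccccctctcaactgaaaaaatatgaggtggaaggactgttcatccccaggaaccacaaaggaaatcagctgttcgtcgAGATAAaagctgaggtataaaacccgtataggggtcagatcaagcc
Ms4a2 (chr19:11623720-11623969, minus): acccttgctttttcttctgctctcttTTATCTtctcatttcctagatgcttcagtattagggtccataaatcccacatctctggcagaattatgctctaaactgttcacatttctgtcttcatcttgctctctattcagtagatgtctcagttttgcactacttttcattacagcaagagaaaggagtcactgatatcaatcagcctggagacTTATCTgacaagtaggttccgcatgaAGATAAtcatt
Mcpt8 (chr14:56085198-56085447, minus): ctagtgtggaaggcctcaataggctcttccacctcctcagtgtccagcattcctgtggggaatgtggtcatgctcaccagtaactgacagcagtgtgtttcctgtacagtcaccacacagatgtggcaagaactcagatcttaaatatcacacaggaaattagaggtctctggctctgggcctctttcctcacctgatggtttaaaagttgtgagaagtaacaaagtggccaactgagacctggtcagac

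Levels are given as CPM, the counts of a gene scaled to the total UMI (unique molecule) count of the cells. After filtering, 7146 cells remained in the control library, 5860 in the Mll3-labelled, 5350 in the Mll4-labelled and 6917 in the Mll3/4-labelled library. The Mll4-labelled library was the shallowest, with a median of 5142 UMIs per cell against 15754 in the control library. It also stood apart in Xist, the transcript of the inactive X chromosome of female cells, at 0.519 CPM against 955 to 1839 CPM in the other 3 libraries, so the sex of the cells and the label cannot be told apart. Kmt2d was not lower in the library labelled Mll4 deleted (24.99 against 25.8 CPM), but 3′ counts outside a deleted exon check nothing. In the Mll3/4-labelled library 98.8% of cells were B-cell progenitor-like, which bears on every value given for it. Among kept cells, 56 barcodes occurred in more than 1 library, and 1 of these cells was basophil/mast-like.

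Of the 8 members, Cma1 differed most between the Mll4-labelled and control libraries. Over all kept cells Cma1 was at 1.19 CPM (1.025 to 1.38, 183 counts) in the control library. The level was 0.5001 CPM (68 counts) in the Mll3-labelled library, 70.7 CPM (67.8 to 73.6, 2317 counts) in the Mll4-labelled library and 0.554 CPM (43 counts) in the Mll3/4-labelled library. The Mll4-labelled library stood alone at the high end, 59.3-fold above control (51.0 to 69.4), the third largest log2 ratio (5.03) among 14452 genes measured. Counts above 0 were found in 19 of the control cells, 15 of the Mll3-labelled, 199 of the Mll4-labelled and 6 of the Mll3/4-labelled. After thinning to 2000 UMIs per cell, the share of cells with Cma1 was 0.128% among control and 1.82% among Mll4-labelled cells.

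The carboxypeptidase Cpa3 had the highest count level of the set in every library except the Mll3-labelled, where Hdc was higher. It was at 33.9 CPM in the control library, 15.6 CPM in the Mll3-labelled, 249 CPM in the Mll4-labelled and 5.59 CPM in the Mll3/4-labelled library. The ratio of the Mll4-labelled library to control was 7.34-fold (7.08 to 7.60). Mcpt8 stood at 15.4, 7.06, 63.4 and 0.322 CPM in the same order of libraries, 4.12-fold (3.88 to 4.37) above control in the Mll4-labelled library. Gzmb, read in the same order, was at 6.54, 3.74, 31.3 and 0.309 CPM, a 4.79-fold difference (4.39 to 5.23). These 3 proteases thus shared 1 order of libraries, with the Mll4-labelled highest, control next, the Mll3-labelled below it and the Mll3/4-labelled lowest.

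Prss34 did not share that order and rested on very few cells. It was at 1.20 CPM (185 counts in 13 cells) in the control library, 1.80 CPM (245 counts in 11 cells) in the Mll3-labelled, and 4.42 CPM (145 counts in 11 cells) in the Mll4-labelled library. The cell with most counts held 140, 103 and 53 of these, and without that cell the levels were 0.293, 1.04 and 2.81 CPM. No count was found in 6917 cells of the Mll3/4-labelled library. Set at the limit of 3 counts its level would be 31.2-fold lower than control, and the exact interval of the ratio reached up to 0.0398. The control level in this ratio includes the cell with 140 counts.

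The receptor chains followed the order of the first proteases. Fcer1a, the chain that binds IgE, was at 2.94 CPM in the control library and 0.669, 19.25 and 0.283 CPM in the Mll3-, Mll4- and Mll3/4-labelled libraries, a 6.54-fold difference (5.79 to 7.40) between Mll4-labelled and control. Ms4a2, the signal-amplifying beta chain, was at 9.49, 4.99, 37.3 and 0.798 CPM, a 3.93-fold difference (3.64 to 4.25). Hdc differed least, with 24.1 CPM in the control library, 19.2 CPM in the Mll3-labelled, 30.9 CPM in the Mll4-labelled and 1.97 CPM in the Mll3/4-labelled library. Its ratio of Mll4-labelled to control was 1.28 (1.19 to 1.37), and thinning to 2000 UMIs per cell turned the log2 ratio to −0.10.

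In the Mll4-labelled library 7 of the 8 members were at least 2-fold higher than control on the log2(CPM + 1) scale, where 5.74% of 14452 genes were, and none was 2-fold lower, where 2.91% were. This contrast helped choose the members, so nothing is read from the count. In the Mll3-labelled library Mcpt8, Cpa3 and Fcer1a were at least 2-fold lower (log2 ratios −1.02, −1.07 and −1.24), where 0.467% of 14550 genes were, and no member was 2-fold higher, where 0.199% were. In the Mll3/4-labelled library 7 members were at least 2-fold lower, where 11.7% of 15158 genes were, and Cma1 was not (log2 ratio −0.50).

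**Figure D1:**
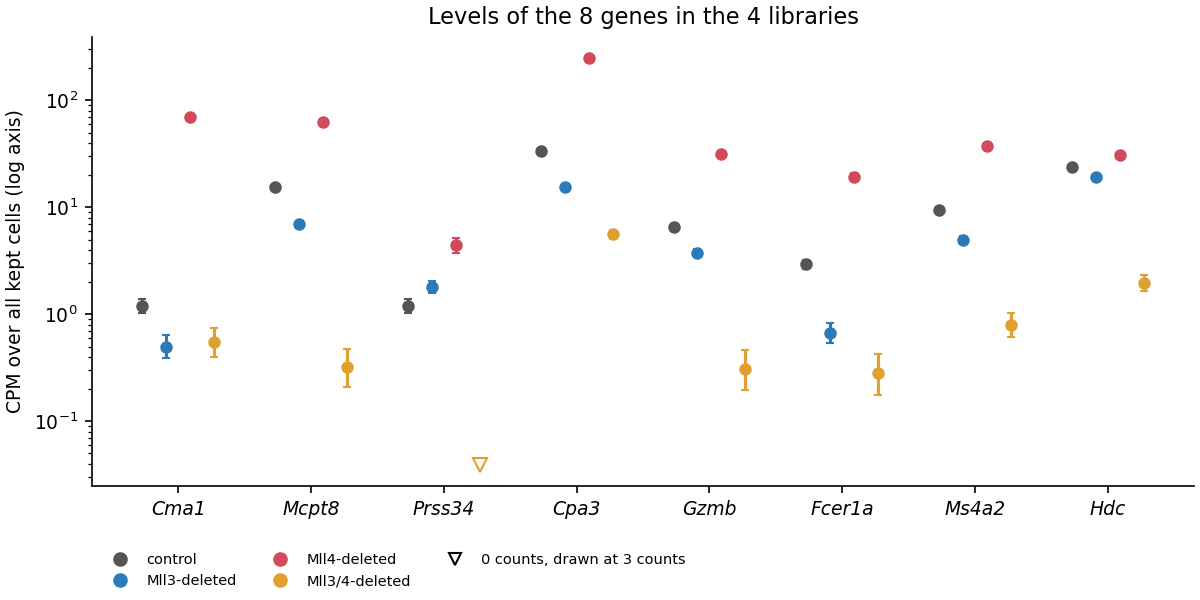
Level of each of the 8 genes over all kept cells of each library, in CPM on a log axis, with exact Poisson 95% intervals as bars. The open triangle stands for 0 counts and is drawn at 3. For all 8 genes the highest point is the library labelled Mll4 deleted, for Hdc by a margin that thinning to equal depth reversed, and Cma1 shows the widest gap, 70.7 against 1.19 CPM in the control library.

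Cells were clustered with the 8 members left out of the genes used, and the clusters were named from other markers. The basophil/mast-like class held 350 cells, led by Mcpt4, Mcpt2 and Tpsb2 (granule proteases), Gpr183, Scin, Ccl2, Cdh1 and Cd200r3. Gata2 and Slc18a2, the amine transporter of granules, marked it in all libraries, at 883 against 54.6 CPM (Gata2) and 448 against 19.3 CPM (Slc18a2) in the Mll4-labelled library. The defining markers Grm6, Rgs13 and Tpsab1 had at most 4 counts in the class in any library, and Il4 had at most 14. The class is therefore kept as basophil/mast-like and is not divided by name into mast cells and basophils.

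The class made up 1.245% of cells in the control library (89 cells), 0.973% in the Mll3-labelled (57 cells), 3.74% in the Mll4-labelled (200 cells) and 0.0578% in the Mll3/4-labelled library (4 cells). The share in the Mll4-labelled library was 3.002-fold that of control (2.33 to 3.90). The Mll3-labelled share was 0.781 of control (0.550 to 1.10), an interval that includes no difference. The edge of the class depended on the doublet step: clustered without doublet removal, it held 28, 18, 160 and 3 cells in the 4 libraries, with 28 of the 89 control and 155 of the 200 Mll4-labelled cells kept in it, and the log2 ratio of the share was 2.97 in place of 1.59. These are shares within a Kit+ sort, and median depth within the class was 2550 UMIs in the Mll4-labelled against 9055 in the control library.

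Almost all Cma1 counts lay in this class in every library. It carried 96.2% of Cma1 counts in the control library (176 counts), 92.65% in the Mll3-labelled (63 counts), 95.5% in the Mll4-labelled (2212 counts) and 90.7% in the Mll3/4-labelled library (39 counts, 38 of them in 1 cell). Within the class, Cma1 stood at 201 CPM in control cells, 118 CPM in Mll3-labelled cells and 3961 CPM in Mll4-labelled cells. Cells with a count numbered 12 of 89, 10 of 57 and 103 of 200. The level per UMI was therefore higher inside the class as well as the class larger: 19.7-fold (16.9 to 23.1) between Mll4-labelled and control cells of the class. In the smaller class found without doublet removal, 12 control and 103 Mll4-labelled cells held Cma1, at 904.5 and 5060 CPM over the class, and the log2 ratio was 2.48 in place of 4.29. The class held 28 control cells in that setting against 89. At 2000 UMIs per cell, 7.87% of control and 41.3% of Mll4-labelled class cells held Cma1. All 89 control but only 138 of the 200 Mll4-labelled class cells reached that depth, and the shallower ones are left out of these shares.

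The counts were uneven among positive cells. Of the Mll4-labelled class counts, the 10 highest cells held 36.4% and the 20 highest 53.2%. The median positive cell held 15 counts and the highest 111, against a median of 9.5 and a maximum of 42 among the 12 positive control cells. Without those 20 cells the log2 ratio of Cma1 in the class was 3.37.

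Outside the class, 96 of 5150 Mll4-labelled cells held 105 Cma1 counts, and 91 of these cells held exactly 1. The level there was 3.26 CPM (2.67 to 3.95) against 0.0458 CPM (7 counts) in the control library. The Mll4-labelled level was 4.34 CPM in neutrophil-like cells (46 of 2427 cells) and 2.90 CPM in monocyte/macrophage progenitor-like cells (9 of 491). It was 2.28 CPM in erythroid progenitor-like cells (13 of 315). Other types differed: cluster 5 held a count in 10 of 407 cells, HSC/MPP-like cells in 1 of 195 and cluster 18 in 1 of 260. The 107 dendritic-like cells held none. Erythroid cells are not known to make chymase, and 4.13% of them held a count at a median of 17927 UMIs (0.320% after thinning). Neutrophil-like cells held one in 1.895% at a median of 4789 UMIs (0.795% after thinning), and 42 of the 46 held exactly 1, the highest 6. The part of free RNA in these counts was not tested.

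**Figure D2:**
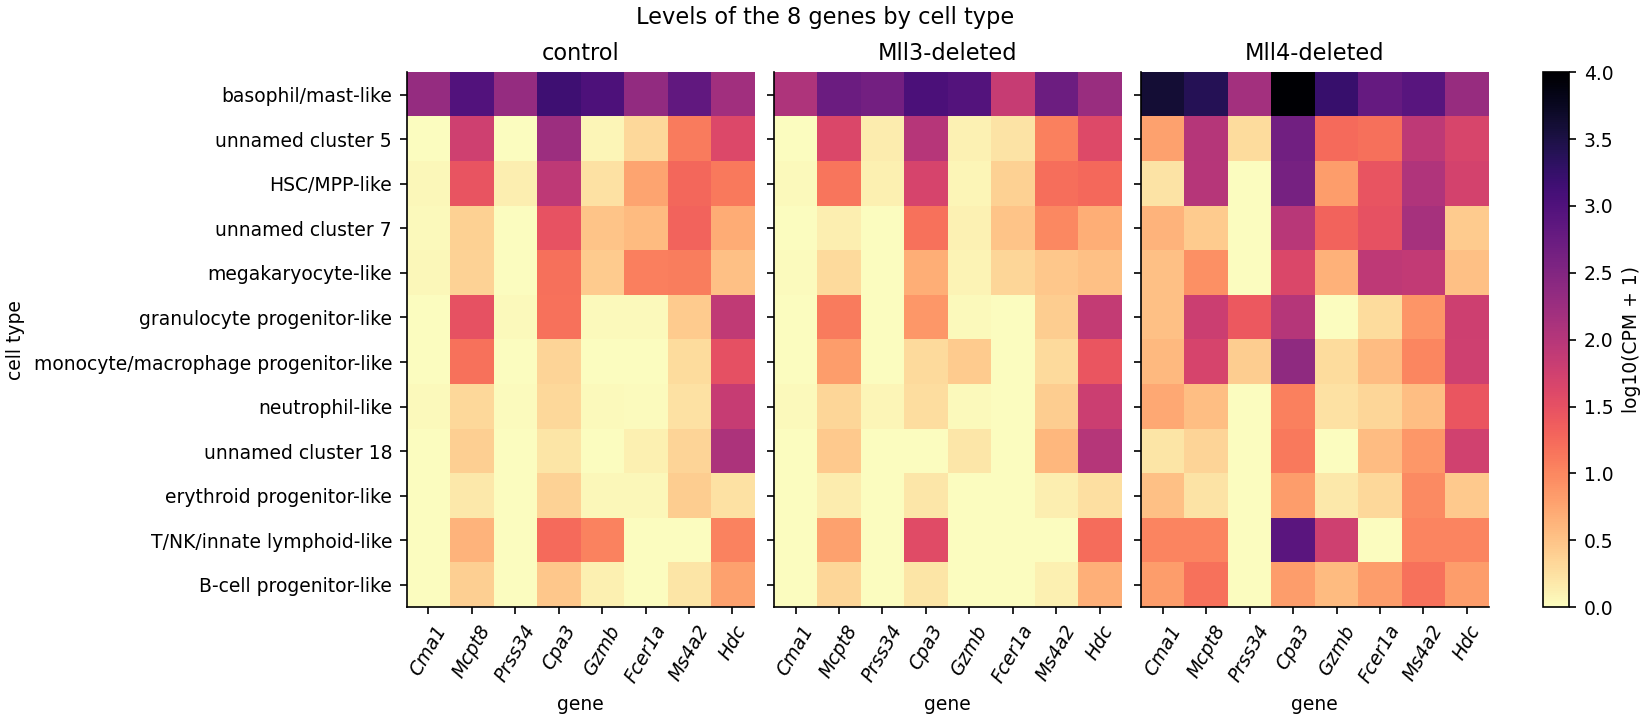
Level of each gene in each cell type of the control, Mll3-labelled and Mll4-labelled libraries, as log10(CPM + 1) from light (0) to dark (4). The row of basophil/mast-like cells is darkest for Cma1 in all 3 libraries (201, 118 and 3961 CPM), while Hdc is also dark in neutrophil-like cells and Cpa3 in HSC/MPP-like cells and cluster 5.

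Some types were made of different clusters in the compared libraries, which bears on each comparison within them below. Neutrophil-like cells lay mostly in cluster 1 in the control library (1253 of 1563) and in cluster 4 in the Mll4-labelled library (1662 of 2427). HSC/MPP-like cells lay mostly in cluster 9 (599 of 892) and in cluster 13 (161 of 195). Granulocyte progenitor-like cells lay mostly in cluster 16 (286 control cells) and in cluster 15 (193 Mll4-labelled cells). Cluster 5 held 711 control and 407 Mll4-labelled cells, but its makeup changed with the settings. With another random seed, the cluster led by Prg2 and Wfdc17 held 845 and 131. At resolution 2 a separate unnamed cluster held 289 Mll4-labelled cells and 1 control cell. Comparisons within cluster 5 below may therefore also be of unlike cells.

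The 350 cells were divided again, after their values had been seen and still without the 8 members, into 4 sub-clusters named by number. Sub-cluster 0 (124 cells) was led by Mcpt4, Mcpt2, Ccl2, Lilrb4a, Ly6a and Tpsb2. Sub-cluster 1 (98 cells) was led by Hbb-bs, Rnase12, Ms4a3, Cebpa and Mpo, sub-cluster 2 (75 cells) by Tpm4, S100a6 and Maf, and sub-cluster 3 (53 cells) by Atp1b2, Vpreb1, Igfbp4 and Ifitm1. The makeup of the class differed between libraries. Sub-cluster 1 was the largest in the control library (53 of 89 cells) and in the Mll3-labelled library (28 of 57), whereas sub-cluster 0 was the largest in the Mll4-labelled library (108 of 200).

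Sub-cluster 0 carried most of the Cma1. It held 85.7% (84.2 to 87.1) of all Cma1 counts of the Mll4-labelled library, 1985 counts in 84 of its 108 cells there. In the control library its 6 cells held 62.3% of Cma1 counts (114 counts, 5 cells positive), and in the Mll3-labelled library its 7 cells held 70.6% (48 counts, 6 cells positive). As a share of all cells it went from 0.0840% in the control library to 2.02% in the Mll4-labelled library, a 24.0-fold difference (10.7 to 67.0). Since 108 of its 124 cells came from 1 library, this sub-cluster and that library cannot be told apart.

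Within sub-clusters the difference in Cma1 between libraries was much smaller than over the class. Sub-cluster 0 had a Cma1 level of 3393 CPM in the control, 1231 CPM in the Mll3-labelled and 8542 CPM in the Mll4-labelled library, and the ratio of Mll4-labelled to control was 2.52-fold (2.08 to 3.07). In sub-cluster 2 the levels were 478 CPM (control) and 1231 CPM (Mll4-labelled) (18 of 50 cells positive), a ratio of 2.57 (1.935 to 3.465). Sub-cluster 1 held no Cma1 count in any of its control, Mll3-labelled or Mll4-labelled cells, and sub-cluster 3 held 1 count in all. The class-wide difference of 19.7-fold thus lay beside a class whose makeup moved toward the sub-cluster richest in Cma1.

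**Figure D3:**
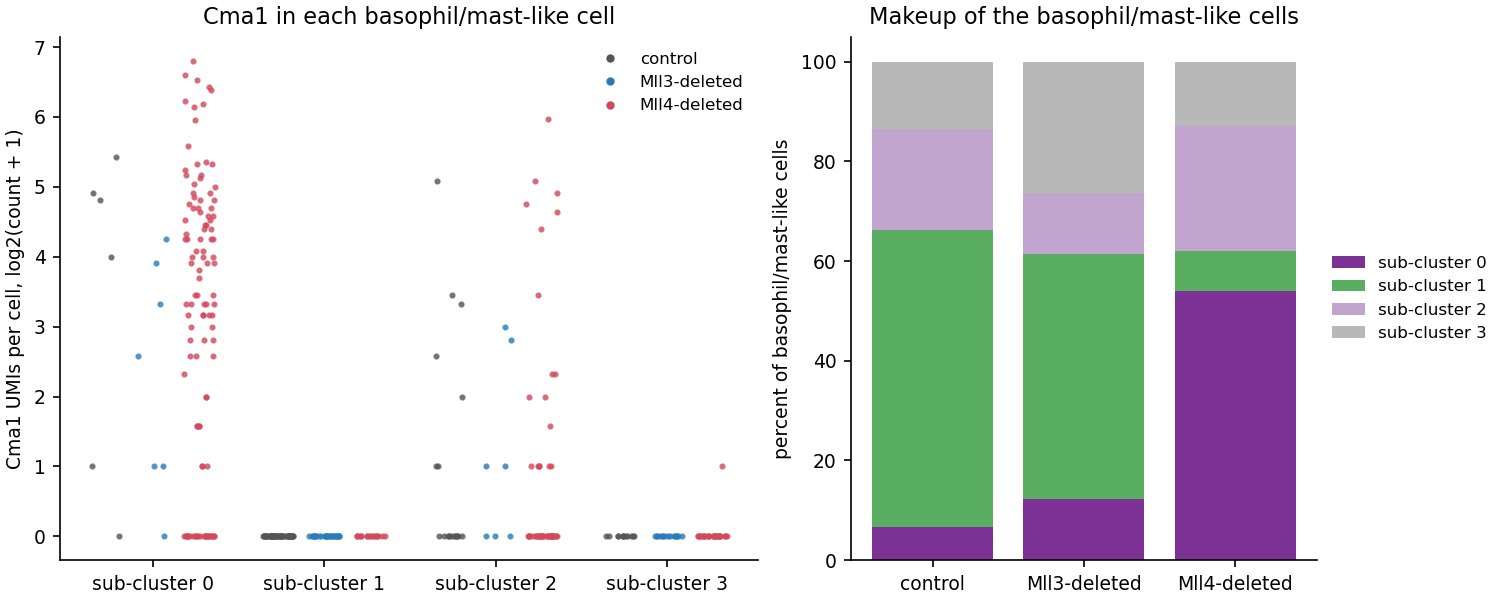
Left, Cma1 UMIs in each basophil/mast-like cell as log2(count + 1), 1 point per cell, by sub-cluster and library; right, the percent of basophil/mast-like cells in each sub-cluster. Points above 0 lie in sub-clusters 0 and 2 with 1 exception, and sub-cluster 0 makes up 54% of the class in the Mll4-labelled against 6.74% in the control library.

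In the Mll4-labelled library, the 103 class cells with Cma1 were compared with the 97 without it. Most of the mast cell genes compared were found more often beside Cma1: the tryptase Tpsb2 in 22 of 103 against 0 of 97 cells, the chymase Mcpt4 in 21 against 2, and the receptor Mrgprb2 in 14 against 2. Il1rl1, the IL-33 receptor, was in 97 against 65 cells and stood at 1456 against 471 CPM. Mitf was in 61 against 34 cells, while the amine transporter Slc18a2 was in 66 against 69. Kit, the receptor for stem cell factor, was at 2869 against 1148 CPM. Cebpa, a myeloid transcription factor, was in 0 against 13 cells. Of the basophil list, Ifitm1 was rarer beside Cma1 (9 against 36 cells) and Cd200r3 more frequent (37 against 22). Median depth was 2268 UMIs in cells with Cma1 and 2995 without it, so the cells with Cma1 were not the deeper ones. The 12 control cells with Cma1 differed from the other 77 in the same way for Kit (1364 against 232 CPM) and Cebpa (0 of 12 against 31 of 77 cells), while Mcpt4 and Tpsb2 were each in 1 of the 12.

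The antibody counts gave a measure that neither the clusters nor the choice of genes had used, except that CD117, the Kit protein, was sorted on. In the Mll4-labelled library the median CD117 count was 579 in class cells with Cma1, 199 in class cells without it and 100 in all other cells. CD16/32, the Fc gamma receptors, had a median of 102 with Cma1 and 34 without, and CD34 of 36 with and 15 without. CD41, the integrin alpha chain of megakaryocytes and early progenitors, had the opposite order, with medians of 10 with and 32 without. In the control library the 12 cells with Cma1 also had higher medians than the 77 without it for CD117 (226.5 against 160) and CD16/32 (195.5 against 56), and a lower one for CD41 (6.5 against 12). The 10 Mll3-labelled cells with Cma1 were likewise higher than the 47 without it for CD117 (430.5 against 151) and CD16/32 (260 against 106). For CD41 they were higher too (7 against 4), so its order was not shared by these libraries.

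Other members were seen in the same cells as Cma1. Of the 103 Mll4-labelled cells with Cma1, all 103 held Cpa3, 75 held Gzmb, 74 Fcer1a, 69 Ms4a2, 50 Mcpt8 and 32 Hdc. None held Prss34, which was in 6 of the 97 cells without Cma1. Of those 97 cells, 95 held Cpa3, 70 Gzmb, 41 Mcpt8 and 29 Hdc. For Cpa3, Gzmb and Hdc these shares were near those of the cells with Cma1. Of the 12 control cells with Cma1, 12 held Cpa3, 12 Gzmb, 11 Ms4a2, 9 Mcpt8, 8 Fcer1a, 4 Hdc and 1 Prss34. Of the 77 control cells without it, 73 held Cpa3, 26 Gzmb, 70 Ms4a2, 29 Mcpt8, 39 Fcer1a, 51 Hdc and 7 Prss34. In the Mll4-labelled library Fcer1a was found more often with Cma1 than without it (74 of 103 against 45 of 97). Ms4a2 was found less often (69 of 103 against 83 of 97), so the 2 receptor chains did not follow Cma1 alike there.

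A level can differ between libraries because the share of a cell type differs. Weighting the control level in each cell type by the UMI share of that type in the Mll4-labelled library gave an expected Cma1 of 3.49 CPM, and the observed level was 20.3 times that. With the 4 sub-clusters kept apart, the expected level was 26.8 CPM and the observed level 2.64 times that. For Gzmb the same step moved the expected level from 18.5 to 59.0 CPM, above the 31.3 CPM observed. Mcpt8 went from 25.1 to 43.8 CPM expected (63.4 observed) and Cpa3 from 43.6 to 83.1 CPM expected (249 observed). Fcer1a and Ms4a2 stayed well below their observed levels of 19.25 and 37.3 CPM, at 8.04 and 13.1 CPM expected with sub-clusters apart. For Prss34 the expected level dropped from 3.49 to 0.815 CPM (4.42 observed), and Hdc was at 45.4 CPM expected against 30.9 observed. These weights rest on 6 control cells in sub-cluster 0 and are arithmetic, with no test.

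**Figure D4:**
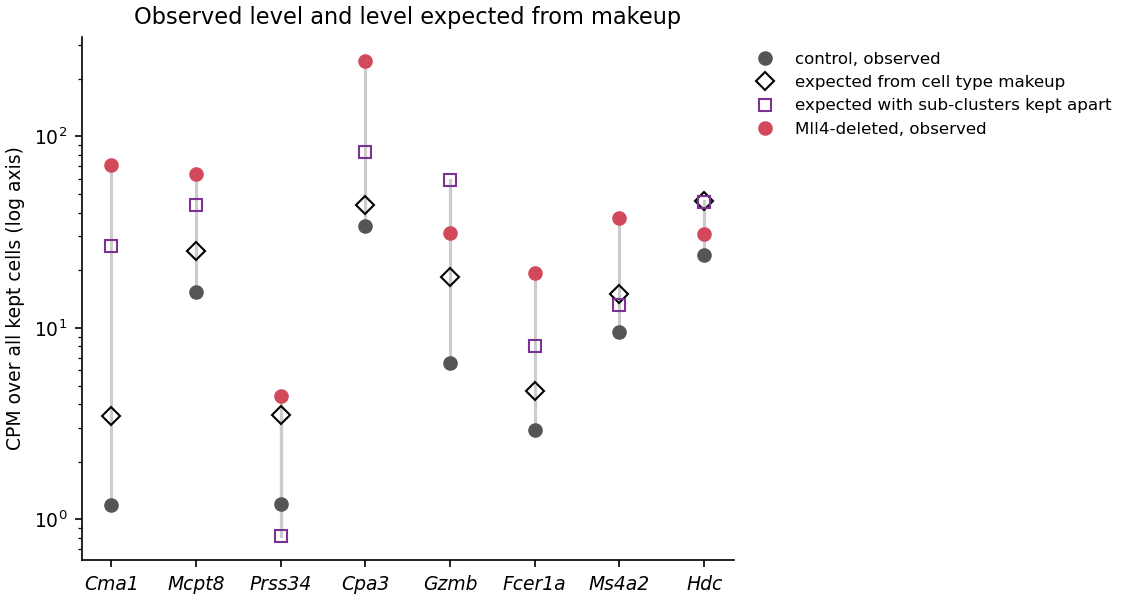
Observed levels in the control and Mll4-labelled libraries and the levels expected in the Mll4-labelled library from its makeup, in CPM on a log axis. For Cma1 the expected level is 3.49 CPM with the class whole and 26.8 CPM with sub-clusters apart, against 70.7 CPM observed; for Gzmb the second expected level (59.0 CPM) lies above the observed one.

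Within the whole class, 4 of the 8 members were at least 2-fold higher in Mll4-labelled than in control cells, where 11.1% of 5918 genes were, and none was 2-fold lower, where 5.36% were. Besides Cma1 (log2 ratio 4.29), these were Cpa3 (1482 to 9307 CPM, 2.65), Fcer1a (214 to 616 CPM, 1.52) and Mcpt8 (951 to 2514 CPM, 1.40). Gzmb had a log2 ratio of 0.65, Hdc of 0.32, Ms4a2 of 0.30 and Prss34 of −0.41. The median over all genes was 0.15, and a trimmed-mean scaling differed from the total-UMI scaling by 0.25, so the values for Hdc and Ms4a2 are near that shift. Control class cells were mostly of sub-cluster 1 and Mll4-labelled ones mostly of sub-cluster 0. In the class found without doublet removal the ratio of Gzmb was −1.24, that of Cpa3 1.92 and that of Prss34 −2.62, whereas Mcpt8 (1.42), Fcer1a (1.31) and Ms4a2 (0.24) were close to the values above. The Prss34 value is a floor set by the pseudocount of 1 CPM, because that smaller class held almost no Prss34 count in either library.

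By sub-cluster, the proteases took different directions. In sub-cluster 0 the Cpa3 level went from 6668 CPM (control) to 16091 CPM (Mll4-labelled), 2.41-fold higher (2.11 to 2.77), whereas Mcpt8 was lower, at 4346 and 2565 CPM (0.590, 0.492 to 0.712), and so was Gzmb, at 3899.5 and 1455 CPM (0.373, 0.304 to 0.460). In sub-cluster 1, which held no Cma1, 16 Mll4-labelled cells were compared with 53 control cells. They had 4.65 times the control level of Mcpt8 (4.05 to 5.34) and 4.625 times that of Prss34 (287 and 1329 CPM). A single cell held 140 of the 176 control Prss34 counts there, so this second ratio leans on that cell. In sub-cluster 2 Mcpt8 was 6.95-fold and Cpa3 2.48-fold higher in Mll4-labelled cells, and Gzmb was at 0.527 of control. Cpa3 was the only member more than 2-fold higher in Mll4-labelled cells of all 4 sub-clusters, with ratios from 2.41 to 2.84. Gzmb, higher over all cells, was lower in both sub-clusters that carried Cma1.

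Within the class, Prss34 was the protease most confined to a single sub-cluster. All but 1 of its class counts lay in sub-cluster 1: 176 of 177 in the control library (7 cells), 236 of 236 in the Mll3-labelled (4 cells) and 85 of 85 in the Mll4-labelled (6 cells). A single granulocyte progenitor-like cell held 53 further counts, 36.55% of the Mll4-labelled library's Prss34. All 6 Mll4-labelled class cells with Prss34 also held Mcpt8, Cpa3, Fcer1a and Ms4a2, and none held Cma1 or Gzmb.

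Mcpt8, unlike Cma1 and Gzmb, was mostly outside the class in the control library, which is where 64.85% of its counts lay. Only 7.27% of control Gzmb counts lay outside. Mll4-labelled cells had 32.5% of Mcpt8 and 9.16% of Gzmb counts outside. The control level of Mcpt8 was 951 CPM in the class, 57.3 CPM in cluster 5, a cluster led by the eosinophil granule gene Prg2 and by Wfdc17, and 30.3 CPM in granulocyte progenitor-like cells. The corresponding Mll4-labelled levels were 2514, 99.5 and 60.03 CPM. HSC/MPP-like cells, the stem and multipotent progenitors, had 27.9 CPM of Mcpt8 in control cells, mostly of cluster 9, and 97.6 CPM in Mll4-labelled cells, mostly of cluster 13.

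Cpa3 also had most of its control counts outside the class (75.1%), chiefly in cluster 5 (38.9%, at 173 CPM) and HSC/MPP-like cells (21.1%, at 82.2 CPM). Both were higher in the Mll4-labelled library, at 460 and 419 CPM. The first is over a cluster whose number of Mll4-labelled cells changed with the settings, and the second again over cells mostly of cluster 13 in place of 9. In the Mll3-labelled library both were lower than control, at 98.2 CPM in cluster 5 and 47.15 CPM in HSC/MPP-like cells. Granulocyte progenitor-like cells had 14.1 CPM in the control and 101.6 CPM in the Mll4-labelled library.

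The widest difference in Cpa3 outside the class, in these clusters, was in monocyte/macrophage progenitor-like cells. In the control library 4 of 192 such cells held a count (1.21 CPM), and in the Mll4-labelled library 143 of 491 (231.5 CPM). At 2000 UMIs per cell the shares were 0.521% and 19.8%. Erythroid progenitor-like cells of the Mll4-labelled library held Cpa3 in 8.57% of cells, or 0.959% after thinning, at 5.62 CPM and a median depth of 17927 against 6187 UMIs. In monocyte/macrophage progenitor-like cells the log2 ratio of Cpa3 was 6.71, and 4.20 when cells were clustered at resolution 2. At that resolution the type held 196 control and 42 Mll4-labelled cells, and a separate cluster of 454 Mll4-labelled and 0 control cells could not be named, so the cells of the 2 libraries lay largely in different clusters.

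These 143 cells were compared with the 348 of the type without Cpa3 in the same library. Most of its markers were less frequent with Cpa3: the monocyte gene F13a1 was in 71.3% against 83.9%, the chemokine receptor Ccr2 in 50.35% against 62.1%, the transcription factor Irf8 in 39.2% against 61.8%, Csf1r in 23.8% against 29.0%, Ctss in 12.6% against 19.8% and Klf4 in 8.39% against 16.7%. Ms4a6c went the other way (90.2% against 79.6%), and Ly86 was in 47.55% against 46.55%. Gata2 was in 16.8% against 4.60%. Hdc was in 52 of the 143 and Mcpt8 in 22. Cma1 and Il1rl1 were each in 1, and Ms4a2 in 5. Doublets were removed by score, and the part of any remaining doublets in these cells was not tested.

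T/NK/innate lymphoid-like cells differed likewise in Cpa3, with 1 of 50 control cells (16.6 CPM) and 20 of 50 Mll4-labelled cells (783.5 CPM) positive. Trbc2, a T-cell receptor constant gene, was in 9 of the 20 and in 12 of the 30 Mll4-labelled cells of this type without Cpa3, and Cd3e in 1 and 8. Gata3 was in 4 of the 20 and 0 of the 30. The natural killer genes Nkg7 and Ncr1 were in 5 and 1 of the 20, and in 14 and 13 of the 30. Il1rl1 was in 4 of the 20 and 1 of the 30. Of the 49 control cells of this type without Cpa3, Cd3e was in 39, Nkg7 in 47 and Trbc2 in 47, while Ncr1 was in 5 and Gata3 in 6. The name of the type thus describes the 20 cells less well than the control cells, and the Cpa3 comparison may not be of like cells.

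The receptor chains were also largely outside the class: 58.6% of Fcer1a counts and 60.05% of Ms4a2 counts in the control library. Fcer1a was next highest in megakaryocyte-like cells, at 10.97 CPM in the control, 1.17 CPM in the Mll3-labelled and 81.1 CPM in the Mll4-labelled library. Ms4a2 in the same cells was at 11.3, 1.90 and 74.2 CPM in that order. In megakaryocyte-like cells both chains thus had the same order of libraries as over all cells. Cluster 7, led by Csrp3 and St8sia6, had 19.3 CPM of Ms4a2 in the control and 141 CPM in the Mll4-labelled library. In cluster 5 the Ms4a2 levels were 11.5 and 80.05 CPM, and in HSC/MPP-like cells 17.98 and 111 CPM.

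Within the class, the Mll3-labelled library had the lowest Fcer1a, 67.2 CPM against 214 CPM in control cells (0.314, 0.2135 to 0.451). Over the class Fcer1a was the single member at least 2-fold lower in that library, where 3.15% of 5579 genes were, and Prss34 the single one at least 2-fold higher (log2 ratio 1.12, 4 cells), where 0.735% were. The other ratios of Mll3-labelled to control class cells lay between 0.554 for Mcpt8 and 1.22 for Hdc (0.934 to 1.59). In the class found without doublet removal the log2 ratio of Prss34 in this library was −2.62, that of Hdc −1.49 and that of Cpa3 0.09, each of the other sign, and that of Fcer1a was −0.99. The Prss34 value is again the floor set by the pseudocount, with almost no Prss34 count in the smaller class, and gives no size.

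Hdc had the largest share of counts outside the class of the whole set, at least 89.3% in every library. Per UMI its level in the class was 154.5 CPM in control and 193 CPM in Mll4-labelled cells, above the populations named next. Outside the class, in the control library, its level was higher in neutrophil-like cells (68.5 CPM), granulocyte progenitor-like cells (77.9 CPM) and cluster 18, led by Spp1 and Fpr2 (120 CPM), than in most other types. In these 3 populations Hdc was lower in the Mll4-labelled library, at 27.1, 57.7 and 54.5 CPM, though the first and second were made mostly of clusters 4 and 15 there and of clusters 1 and 16 in the control library. In HSC/MPP-like cells, mostly of clusters 9 and 13, it was higher (12.1 and 49.5 CPM), and so it was in monocyte/macrophage progenitor-like cells (31.3 and 55.8 CPM). The near-equal totals of Hdc therefore held differences of both directions.

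In the Mll3/4-labelled library the few counts left were spread over few cells. The 4 basophil/mast-like cells held 39 of its 43 Cma1 counts, 180 of 434 Cpa3 counts, 13 of 24 Gzmb counts and 11 of 22 Fcer1a counts. Of the 62 Ms4a2 counts, 33 were in 3 of its 10 HSC/MPP-like cells and 29 of these were in 1 cell. B-cell progenitor-like cells, 6831 in number, held 111 of the 153 Hdc counts, at 1.46 CPM. Without the cell with most counts, Cma1 in this library was down to 5 counts (0.0644 CPM).

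Related genes were read from lists put together with earlier results known, and some lists hold members of the set, whose values were known when they were chosen. Over all genes of this comparison, 5.74% were at least 2-fold higher and 2.91% lower. Of 12 connective-tissue mast cell genes, 7 were measured over all cells of the Mll4-labelled library and control, and 5 were at least 2-fold higher, with 0 lower and a median log2 ratio of 1.04 (0.02 over all genes). Of 16 genes of the chymase and granzyme locus, 6 were measured and 4 were higher, with a median of 2.04, and 3 of these 4 were the set's own Cma1, Mcpt8 and Gzmb. Of the 8 tryptase locus genes, 2 were measured and both were higher, the set's Prss34 and Tpsb2. The 13 measured basophil genes were mixed, with 4 higher, 2 lower and a median of 0.20. The lower ones were Ifitm1 (139 and 54.4 CPM) and Il4 (1.315 and 0.1525 CPM).

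Medians of the other lists lay between 0.37 and 0.61. Of 14 Fc epsilon receptor signalling genes, 4 were higher, the set's Fcer1a and Ms4a2, the kinase Lyn (38.3 and 115 CPM) and the phospholipase Plcg2 (31.9 and 65.9 CPM), and 1 was lower, the adaptor Lat (18.8 and 4.09 CPM). Of 9 measured genes of granule storage and amine handling, 3 were higher. They were the set's Cpa3, the serpin Serpinb1a (323.5 and 708 CPM) and Ctsc, the activator of granule proteases (23.6 and 50.8 CPM). Of 16 transcription factors and cytokine receptors, 4 were higher, among them Cebpa (14.1 and 50.9 CPM) and Csf2rb (17.7 and 49.1 CPM). Of 6 measured cytotoxic lymphocyte genes, 3 were higher and 1 lower. In the Mll3-labelled library, where 0.199% of genes were 2-fold higher and 0.467% lower, no gene of these lists was higher. Those lower there on the log2(CPM + 1) scale were Mcpt2 (log2 ratio −1.31) and the set's own Mcpt8, Fcer1a and Cpa3.

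Within the class, most of the measured mast cell genes differed by large ratios, and so did some genes of other lists. All values here are levels in control and Mll4-labelled class cells. Mcpt4 was at 16.0 and 876 CPM, Tpsb2 at 32.0 and 297 CPM, and Mitf, a transcription factor that mast cells require, at 16.0 and 227 CPM. Il1rl1 was at 134 and 917 CPM and Kit at 344.5 and 1927 CPM. Of the 7 mast cell genes measured there, 5 were at least 2-fold higher and 0 lower, with a median log2 ratio of 3.17, where 11.1% of 5918 genes were higher and 5.36% lower. Slc18a2 (log2 ratio 0.63) and Cd63 (−0.21) were under 2-fold. Genes of the basophil list were again mixed, with Cd200r3 (9.155 and 179 CPM) and Lilr4b (6.87 and 166.5 CPM) among 4 higher, and Ifitm1 and Csf1 (log2 ratios −1.49 and −1.34) the 2 lower. Gata2 (log2 ratio 0.38) and Cebpa (0.05) were not 2-fold different. Mcpt2, a relative of the other chymases, was lower (−1.64), and whether reads are shared among Mcpt4, Mcpt2 and Cma1 was not tested.

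Of these genes, Mcpt4 and Tpsb2 were in few of the Cma1-bearing cells, and Il1rl1 and Mitf in most. In Mll4-labelled cells of sub-cluster 0 Mcpt4 was in 21 of 108 cells (2079 CPM) and Tpsb2 in 21 (710 CPM), whereas Il1rl1 was in 99 (1609.5 CPM) and Mitf in 58 (370 CPM). In the 6 control cells of the sub-cluster Mcpt4 and Tpsb2 had no count, and Il1rl1 was at 863 CPM. Of the 84 cells with Cma1 there, then, most had no Mcpt4 or Tpsb2 count at a median depth of 1918 UMIs.

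The 2 hashtag antibodies of each library, whose meaning is not given in the sources used here, divide the same cells, and the values by hashtag are a description of them. Over all cells, Cma1 was at 0.490 and 1.94 CPM in control cells of Hashtag1 and Hashtag2, and at 35.7 and 125 CPM in Mll4-labelled cells. In class cells the levels were 81.0 and 308 CPM in the control and 2396 and 5234 CPM in the Mll4-labelled library. Hashtag2 cells had the higher level in both libraries.

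Over 38 sums of a cell type in a library, with at least 50 cells each, the genes whose log2(CPM + 1) was most like that of Cma1 by Pearson correlation were Gm49794 (0.911), Gzmb (0.908), the chemokine Ccl2 (0.906), Frmpd1 (0.891) and Sema3c (0.888). For Mcpt8 they were Gm11697 (0.872), Papss2 (0.859), Cdh1 (0.855), Cpa3 (0.829) and Gm20342 (0.814). The sums share libraries and depths, and Gm49794, Frmpd1 and Sema3c rest on at most 30 counts. Cma1 itself correlated at 0.738 with Mcpt8, 0.737 with Cpa3, 0.848 with Prss34, 0.789 with Fcer1a, 0.773 with Ms4a2 and 0.407 with Hdc.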

How the data were processed

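The files hold raw UMI counts per gene and antibody for each barcode, deposited by the authors as unnormalised counts. Cell Ranger 6.1.2 and mm10 are named in the submitters' processing notes, and the library chemistry is 10x 3′ version 3.1 per the labels' protocols. Barcodes with at least 500 genes, 1000 UMIs and at most 10% mitochondrial counts were kept. Scrublet scores (scanpy 1.11.5, python 3.11.15, expected rate 0.06) were used to remove the highest-scoring barcodes, at 0.8% per 1000 barcodes. Counts were scaled to 10000 per cell and logged; 2000 variable genes without the 8 members, Xist, Y-linked and mitochondrial genes, 30 components, 15 neighbours and Leiden resolution 1 gave the clusters. A cluster took the name of its best-scoring type when at least 3 of that type's markers were each in at least 10% of its cells. It was kept by number where its leading genes held more markers of another type (clusters 5, 7 and 18), or where it was shallow with none of its own markers among them (cluster 26). The members and gene lists were chosen with earlier results of these data known. The basophil/mast-like cells were divided again at 1 setting only (1000 variable genes, 15 components, resolution 0.5), chosen after seeing the data. Cluster-leading genes describe the clusters and were not tested.

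Summed counts per library or cell type gave CPM with exact Poisson intervals, shares of cells exact binomial intervals, and ratios exact conditional intervals, all at 95% and covering counting error only. Log2 ratios used a pseudocount of 1 CPM. Genes with at least 20 counts in either library were counted as measured, and 2-fold was the limit. Cells were thinned to 2000 UMIs, with shallower cells left out, to compare shares. No p-value is given because each group is 1 library. Genes outside the set were named if they belonged to a list and differed 2-fold, up to 4 per direction, or were among the 5 most correlated with Cma1 or Mcpt8; cluster-leading genes, genes compared between cells with and without Cma1 or Cpa3, and list genes under 2-fold were chosen after their values were seen. Gene positions are from GENCODE M21, which held 32235 of the 32285 gene identifiers, and all 8 members matched RefSeq upstream windows.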

Additional observations from a re-analysis of the deposited data

How the results depend on the processing

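No paired analysis was possible because each group is 1 library. The log2 ratio of Cma1 over all cells, Mll4-labelled to control, was 5.03. It was 4.43 after thinning to 2000 UMIs, 5.78 with a pseudocount of 0.1 CPM, 4.62 and 5.43 in Hashtag1 and Hashtag2 cells alone, and 4.03 without the 20 cells with most Cma1, an alternative chosen after seeing the data. Without those 20 cells the ratio within the basophil/mast-like class was 3.37, against 4.29. The share of cells with Cma1 was 1.82% after thinning, against 3.72%. Without doublet removal, where fewer control cells joined the class, the log2 ratio of the class share was 2.97 (1.59 with it), and that of Cma1 within the class 2.48. Those of other members turned sign for Gzmb in the Mll4-labelled (−1.24) and for Prss34 (−2.62), Hdc (−1.49) and Cpa3 (0.09) in the Mll3-labelled library. The Prss34 value is a floor set by the pseudocount and rests on almost no counts. The values within the class were added after seeing the data. The expected Cma1 level was 26.8 CPM with sub-clusters apart, also chosen afterwards. With the members among the variable genes, expected Cma1 was 0.688 CPM in the Mll3-labelled and 0.0943 CPM in the Mll3/4-labelled library. Of the list counts, basophil genes lower and tryptase genes higher were each 1 without doublet removal, mast cell genes higher were 3 with trimmed-mean scaling, and cytotoxic genes higher were 1 with a minimum of 100 counts and with trimmed-mean scaling. Other ratios that turned sign were Cma1 in the Mll3/4-labelled library in Hashtag1 cells (0.45), Prss34 in the Mll3-labelled (−0.04) and Hdc in the Mll4-labelled library (−0.10) after thinning, and class Gzmb in the Mll3-labelled library with the members among the variable genes (0.08). Over all member levels, 107 alternative values moved by less than counting error, 82 by more, and 3 turned sign. The cause of these changes was not tested. At this depth a member with 0 counts in a library is bounded only by 3 counts of that library's total.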
